A study of Mus musculus with 6 samples.

Results

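The report concerns barcodes of mouse blood mononuclear cells that carry transcripts of conventional dendritic cells. Members were chosen by measured values: of the 49407 deposited cell barcodes, 49025 passed a filter on quality (200 or more genes, no more than 20% of UMIs from mitochondrial genes), and 105 of these met the rule. A UMI, or unique molecular identifier, stands for 1 captured RNA molecule. It asked for at least 2 UMIs in sum of Flt3, Clec10a, Cd209a, Zbtb46, Xcr1 and Clec9a, and at least 5 in sum of H2-Aa, H2-Ab1, H2-Eb1 and Cd74. It allowed at most 1 UMI of the B cell genes Cd79a, Cd79b and Ms4a1, and none of Cd3d, Cd3e, Cd3g or Siglech. The levels of these genes are therefore a description of the choice and carry no test.

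Conventional dendritic cells take up antigen, load it on MHC class II molecules and present it to T cells. They arise from bone marrow precursors that need the receptor Flt3, and they pass through blood in small numbers on their way to tissues. One lineage, cDC1, depends on the transcription factor Irf8, carries Xcr1 and Clec9a and is known for cross-presentation to CD8 T cells, while the other, cDC2, carries Cd209a and Clec10a and presents mainly to CD4 T cells. Blood monocytes share many transcripts with cDC2, among them Csf1r, Ccr2 and Lyz2, the gene of lysozyme.

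The 6 libraries were made from peripheral blood mononuclear cells of male mice aged 12 to 13 weeks. The control group (Con, 3 libraries) received saline and the diabetic group (T2D, 3 libraries) streptozotocin, a toxin of insulin-producing beta cells, both by intraperitoneal injection; the series title names a high-fat diet with streptozotocin, and what the controls ate is not stated in the labels. Nor is it stated whether 1 mouse or pooled blood went into a library. All p-values therefore refer to the spread among libraries, part of which may be technical. The libraries held 23574052 to 32321855 UMIs in 7404 to 9112 barcodes, and kept barcodes had a median of 2814 to 3244 UMIs. Library medians were 5865 to 9040 UMIs in members and 4240.5 to 6593.5 in classical monocytes. Members had the higher median in Con 2 and the 3 T2D libraries and the lower one in Con 1 (5865 against 6113) and Con 3 (6293 against 6593.5). A total of 1127 barcodes occurred in more than 1 library. Of the members, 4 had such a barcode and 0 shared it with another member. A simulated-doublet score marked 1 member, in Con 1.

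The label was checked against the members' own transcripts, and the members fell into sets that the label does not describe alike. In 47 of the 105 members, Lyz2 made up at least 1% of all UMIs (1.08% to 4.41%, median 3.09%), and the 4 class II genes of the rule made up a median of 0.101% (9 UMIs). These Lyz2-high members carried a median of 2 UMIs of the 6 dendritic genes, the lowest number the rule allows. In the other 58, Lyz2 made up a median of 0.119%, the class II genes 2.76% (98 UMIs), and the dendritic genes had a median of 7 UMIs. For comparison, library medians in classical monocytes were 2.81% to 3.35% for Lyz2 and 0.0577% to 0.113% for class II, and in a B cell class class II was 2.95% to 3.21%. The boundary of 1% was chosen after these values were seen (the nearest members lie at 0.897% and 1.08%), so the sets are a description and no difference between them was tested. The member at 0.897% (T2D 3) had 5 class II UMIs, 6 UMIs of Ace and 2 of Adgre4, genes of non-classical monocytes. The member at 1.08% (T2D 2) had 218 class II and 12 dendritic UMIs. Low Lyz2 alone thus does not show that the label holds. In 38 of the 47 Lyz2-high members, class II stood at 0.5% or less, and in the other 9 above it, up to 6.22%. For most of the 47, then, the label goes against the data, and the 105 barcodes are called members of the rule below.

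**Figure D1:**
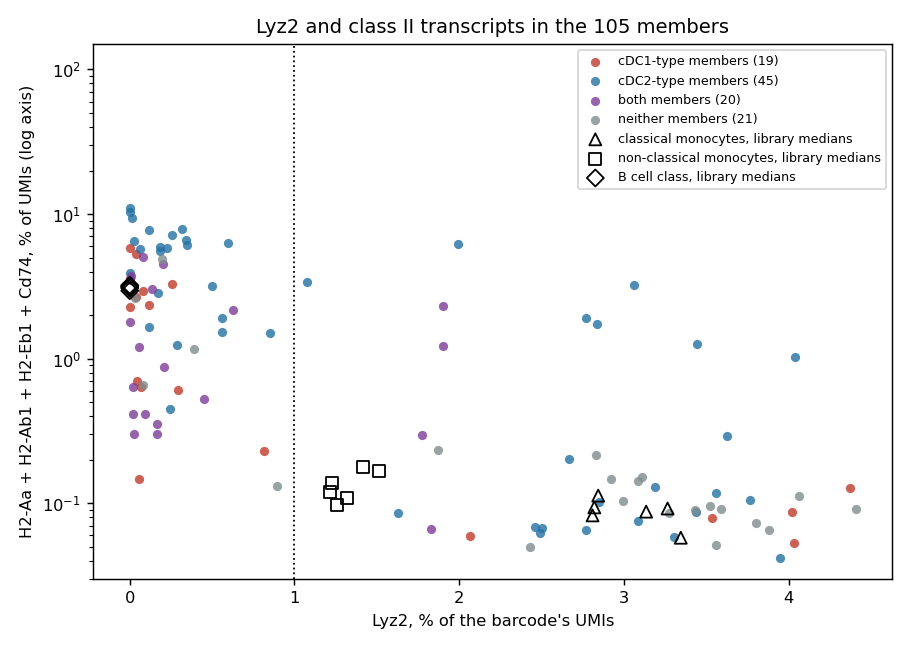
Each coloured point is 1 of the 105 members, with the share of its UMIs from Lyz2 on the x axis and from the 4 class II genes of the rule on the y axis (log axis); open symbols are the 6 library medians of other classes. The 47 members right of the dotted line at 1% lie mostly around the classical monocyte medians, and the 58 left of it between 0.132% and 11.1% class II.

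At the edge of the rule, the 36 members with exactly 2 dendritic UMIs had a median of 3.03% Lyz2 and 0.115% class II, and 69.4% of them were Lyz2-high. Just outside, 135 barcodes met every other condition with 1 dendritic UMI. They had medians of 2.43% Lyz2 and 0.139% class II, and 77.0% were Lyz2-high. Among the 69 members with 3 or more dendritic UMIs, 31.9% were Lyz2-high.

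Flt3, the cytokine receptor of dendritic cell development, was detected in 86 of the 105 members and summed to 28, 39 and 18 UMIs in Con 1, 2 and 3 and 33, 71 and 52 in T2D 1, 2 and 3. Cd209a, a lectin of cDC2, was detected in 46 and Clec10a, another lectin of cDC2, in 41. Cd209a summed to 33, 134 and 40 UMIs in Con 1, 2 and 3 and 67, 79 and 48 in T2D 1, 2 and 3. The library Con 2 stood highest in Cd209a although T2D 2 held the most members. Single barcodes held 42 of the 134 UMIs in Con 2 and 41 of the 67 in T2D 1. Clec9a, a cDC1 receptor for exposed actin filaments, was found in 30 members and summed to 17, 5 and 5 UMIs in Con 1, 2 and 3 and 13, 15 and 10 in T2D 1, 2 and 3. The chemokine receptor gene Xcr1, also of cDC1, was found in 15 members, with 0, 3 and 5 UMIs in Con 1, 2 and 3 and 3, 19 and 0 in T2D 1, 2 and 3. Of the 19 in T2D 2, 14 came from a single barcode. Zbtb46, a transcription factor that marks conventional dendritic cells among myeloid cells, was found in 15. Only 1 of these 15 was Lyz2-high.

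The first comparison asked whether the share of such barcodes differed between the groups. Con 1, 2 and 3 held 17, 17 and 9 members, or 0.224%, 0.232% and 0.111% of kept barcodes, and T2D 1, 2 and 3 held 14, 31 and 17, or 0.156%, 0.352% and 0.208%. The exact binomial 95% intervals, which cover counting error only, ran from 0.0507% to 0.210% in the lowest library (Con 3) and from 0.239% to 0.499% in the highest (T2D 2). The groups overlapped, with means of 0.189% ± 0.0677 in Con and 0.238% ± 0.102 in T2D (SD over 3 libraries each), and a two-sided exact permutation test over libraries gave p = 0.6, where the smallest p that 3 against 3 allows is 0.1. Without T2D 2 the difference changed sign, to −0.00731 percentage points. It also changed sign, to −0.0102, when the share was taken of barcodes with at most 1 B cell UMI; the B cell class made up 49.3% ± 0.700 of barcodes in Con and 38.1% ± 3.36 in T2D. The Lyz2-low members alone numbered 9, 8 and 8 in Con and 9, 17 and 7 in T2D, and the Lyz2-high members 8, 9 and 1 against 5, 14 and 10. Con 3 thus held 1 Lyz2-high member among 9, the lowest number of any library.

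**Figure D2:**
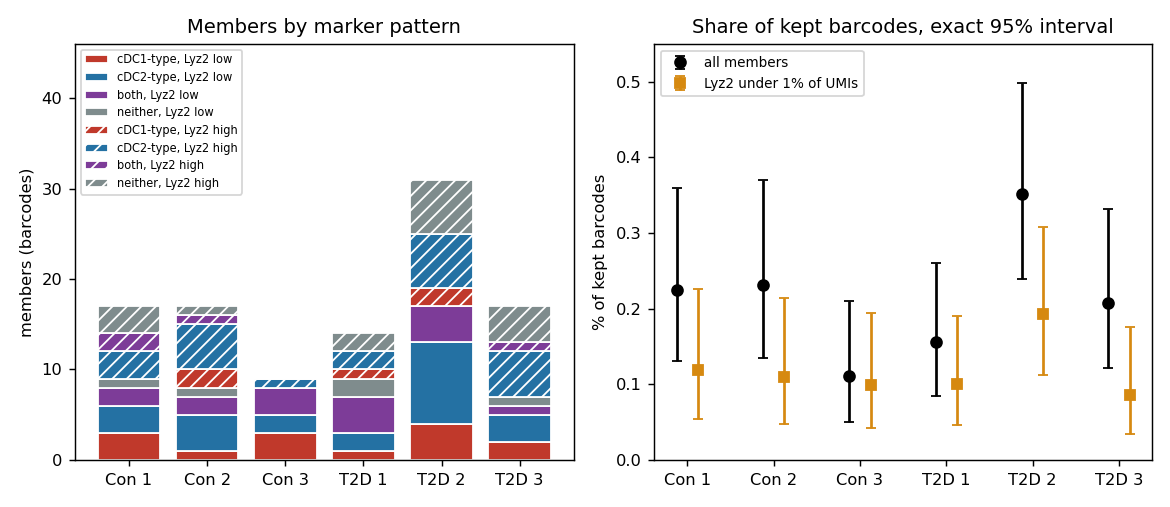
Left, members per library (barcodes) by the dendritic genes detected, with Lyz2-high members hatched; right, the share of kept barcodes in percent with exact 95% binomial intervals, for all members (circles) and for those with Lyz2 under 1% of UMIs (squares). The shares of the 3 Con and 3 T2D libraries overlap, and T2D 2 is the highest in both.

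By the dendritic genes detected, 19 members were cDC1-type (Xcr1 or Clec9a, no Cd209a or Clec10a), 45 were cDC2-type (the reverse), 20 had UMIs of both pairs and 21 of neither pair, with Flt3 or Zbtb46 only. Lyz2-high members made up 5 of the 19, 22 of the 45, 4 of the 20 and 16 of the 21. The cDC1-type share of members was 22.9% ± 9.06 in Con and 15.1% ± 3.87 in T2D (SD, n = 3; two-sided exact permutation p = 0.3, adjusted over the 4 subsets 0.533). The cDC2-type share was 40.5% ± 10.8 and 41.3% ± 11.1 (exact permutation p = 1, adjusted 1). The share with both pairs was 24.8% ± 7.92 and 17.7% ± 9.39 (exact permutation p = 0.4, adjusted 0.533), and that with neither pair 11.8% ± 11.8 and 25.8% ± 5.58 (exact permutation p = 0.2, adjusted 0.533). In all 4 the groups overlapped, and a subset held 0 to 15 members in a library.

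The genes that went with each pattern are given next as pooled UMIs per 1000000 (CPM) over the Lyz2-low members of a type, without the 1 scored doublet and with no test; genes were picked by their ratio to the highest of the other sets or from the cDC1 and cDC2 lists, after the data were seen. Pooled over the 14 cDC1-type barcodes, several cDC1 regulators and markers that the rule did not use stood high, though not in every barcode or library. Irf8 stood at 1656 CPM (12 of 14 barcodes), against 108 in cDC2-type, 90.7 in those with both pairs and 364 in Lyz2-high members. The cell surface glycoprotein gene Cd24a stood at 879.5 CPM (7 of 14 barcodes) and the inhibitor of DNA binding gene Id2, needed for cDC1 development, at 879.5 CPM (12 of 14 barcodes). Cst3, which encodes the protease inhibitor cystatin C, reached 9666 CPM (13 of 14 barcodes), against 3833 in cDC2-type. Naaa, an acid amidase gene, was at 795 CPM (9 of 14 barcodes) and Wdfy4, needed for cross-presentation by cDC1, at 533 CPM (10 of 14 barcodes). Ifi205 was at 646 CPM (6 of 14 barcodes), Rab7b at 430.4 CPM (8 of 14 barcodes) and the aminopeptidase gene Anpep at 318 CPM (6 of 14 barcodes), and each was at 41.5 CPM or less in the other Lyz2-low sets of the comparison. Of the 14, 5 barcodes from 4 libraries held 165 of the 177 Irf8 UMIs, and the other 9 held 12, at most 5 each. Con 2 and T2D 1 each had a single barcode among the 14, with 1 Irf8 UMI. That of Con 2 had 5 UMIs of Ace and 3 of Adgre4, genes of non-classical monocytes, and 9 class II UMIs. Also among the 14 were a Con 3 barcode with 53 UMIs of the platelet gene Ppbp and a T2D 2 barcode with 35 of the complement gene C1qc. A single T2D 2 barcode of 24752 UMIs gave 78 of the 177 Irf8 UMIs and 350 of the 1033 Cst3 UMIs, and 51 of the 69 Ifi205 UMIs came from 1 barcode, so these pooled levels rest in part on single barcodes. Over the 21 genes of the cDC1 list that the rule did not use, the summed level was 16983 CPM in cDC1-type, 5011 in cDC2-type and 4098 in Lyz2-high members. It was 17953 CPM in the 5 Lyz2-low members with neither pair, which were not among the sets used to pick genes. There 1 Con 2 barcode of 9597 UMIs held 30 of the 34 Irf8 UMIs and 184 of the 234 Cst3 UMIs.

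The 23 cDC2-type Lyz2-low barcodes had the highest class II share, a median of 5.79% of UMIs against 2.51% in cDC1-type and 1.04% in those with both pairs. Tmem176a, a membrane protein gene known from cDC2, stood at 498 CPM (12 of 23 barcodes), against 93.6 in cDC1-type and 151 in those with both pairs. The mannose receptor gene Mrc1 stood at 216 CPM (7 of 23 barcodes) and was not detected in cDC1-type. The integrin gene Itgam (CD11b), a cDC2 marker that monocytes share, was at 672 CPM (19 of 23 barcodes), against 103 in cDC1-type and 874 in Lyz2-high members. The cDC2 list, over its 21 genes, summed to 5749 CPM in this set, 5079 in those with both pairs, 2508 in cDC1-type and 5735 in Lyz2-high members, so the sum does not set cDC2-type barcodes apart from the Lyz2-high. Mgl2, a lectin of tissue cDC2, was found in 3 of the 23. Klf4, a factor of cDC2 subsets and monocytes, was at 722 CPM (17 of 23 barcodes), and Irf4, a factor of cDC2 development, at 66.4 CPM (5 of 23 barcodes).

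The 15 Lyz2-low barcodes with UMIs of both pairs, once the doublet was left out, all had UMIs of Cd209a, and 13 had them of Clec9a. Cd7, a surface protein gene of lymphoid and dendritic precursors, was at 1279.9 CPM (13 of 15 barcodes), against 515 in cDC1-type, 389.9 in cDC2-type and 14.9 in Lyz2-high members. Ly6c2 was at 967 CPM (11 of 15 barcodes) and the chemokine receptor gene Ccr2 at 2237 CPM (15 of 15 barcodes), against 232 and 1667 in cDC2-type and 2219 and 3521 in Lyz2-high members, while Lyz2 made up a median of 0.0842% of UMIs. The largest ratios to the other sets were those of Crip2, at 292 CPM (6 of 15 barcodes), Ptger4, a prostaglandin E2 receptor gene, at 292 CPM (8 of 15 barcodes), the galactosyltransferase gene B4galt4, at 111 CPM (8 of 15 barcodes), and Tppp3, at 746 CPM (10 of 15 barcodes). Irf8 and Id2 were at 90.7 and 50.4 CPM, near or below the 108 and 166 of cDC2-type. Their dendritic UMIs had a median of 12.5 over all 16 Lyz2-low members with both pairs, the highest of the 4 types.

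**Figure D3:**
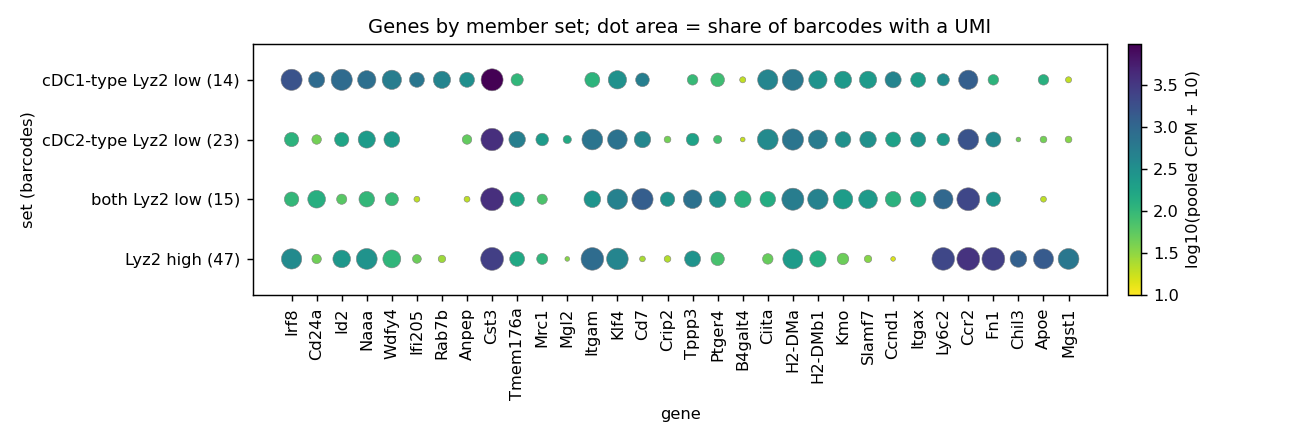
Genes on the x axis and 4 sets of members on the y axis, with the number of barcodes in brackets; the dot area is the share of barcodes with a UMI and the colour log10 of the pooled CPM plus 10. Irf8 to Anpep are darkest in cDC1-type, Tmem176a to Mgl2 in cDC2-type, Cd7 to B4galt4 in barcodes with both pairs of genes, and Fn1 to Mgst1 in the Lyz2-high set.

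The 47 Lyz2-high members carried a monocyte pattern. Fn1 (fibronectin) was at 2699 CPM (47 of 47 barcodes), Apoe at 1367 CPM (36 of 47 barcodes), Chil3, a chitinase-like protein gene of inflammatory monocytes, at 1201 CPM (25 of 47 barcodes) and the neutrophil-attracting chemokine gene Cxcl2 at 1008 CPM (34 of 47 barcodes). Hp, the haptoglobin gene, was found in 43 and Mgst1, a glutathione transferase gene, in 39 of the 47. Itgax, the CD11c gene of dendritic cells, was found in 0 of the 47, which allows a share of up to 6.38% of such barcodes with a UMI, and in 25 of the 58 Lyz2-low members, at median depths of 8631 and 6061.5 UMIs. The 5 remaining Lyz2-low members had neither pair.

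A few barcodes stood apart by 1 gene. One T2D 1 member with neither pair held 50 UMIs of Fscn1, the fascin gene of mature dendritic cells, and no other member held more than 5. Complement genes that mark macrophages were high in a T2D 2 barcode (18 UMIs of C1qb, 35 of C1qc) and a T2D 3 barcode (28 and 11), the last with 8 UMIs of Ace and 6 of Adgre4, genes of non-classical monocytes. The third barcode with more than 2 UMIs of C1qb was a cDC2-type member of Con 2, with 7. Over all 105 members, Ace was found in 13 and Adgre4 in 18. A Lyz2-high T2D 3 barcode held 17 and 5 UMIs of Ace and Adgre4. A Lyz2-low T2D 3 barcode held 6 and 2, and a Lyz2-low Con 2 barcode 5 and 3. A Con 3 barcode of 3388 UMIs held 53 of the platelet gene Ppbp and only 5 class II UMIs, and a T2D 1 barcode of 7442 UMIs held 24 of Ppbp.

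Members were then compared with classical monocytes of the same libraries (433 barcodes, chosen by Ccr2, F13a1, Ly6c2 and Csf1r) by edgeR's quasi-likelihood test with the library as block, with the genes of either rule not tested. Of 5363 genes tested, 410 passed (7.64%): 187 were higher in members (3.49% of those tested) and 223 lower (4.16%) at an adjusted p under 0.05. Because 47 members are Lyz2-high, these values describe the mixture and not the Lyz2-low members alone. The largest log2 folds among called genes with a mean of at least 50 CPM over both classes were those of Ccnd1, the cyclin D1 gene, at 110.4 ± 64.1 CPM in members and 1.24 ± 2.40 in classical monocytes (SD, n = 6; edgeR log2 fold ± SE 6.09 ± 0.524, adjusted p = 4.01e-09), and Cd7, at 386 ± 239.9 CPM in members and 14.8 ± 14.4 in classical monocytes (4.61 ± 0.401, adjusted p = 3.65e-05). Next came Kmo, a kynurenine pathway enzyme gene, at 139 ± 62.9 CPM in members and 10.7 ± 5.74 in classical monocytes (3.45 ± 0.341, adjusted p = 3.90e-08), and Slamf7, a receptor gene of the SLAM family, at 126 ± 54.0 CPM in members and 14.2 ± 5.44 in classical monocytes (3.10 ± 0.338, adjusted p = 2.16e-07). In each of these 4 the lowest library of members (45.9, 200.4, 82.6 and 55.05 CPM) was above the highest of classical monocytes (6.01, 33.0, 16.9 and 21.0 CPM). The other 11 named genes, in order, were Ciita, Dpp4, Mrc1, Ddit4, L1cam, H2-DMb1, Ckb, Bach2, Arhgap5, Pak1 and Runx2, with log2 folds from 3.06 to 2.01. Of the 15, 14 kept their call without any 1 library. Mrc1, at 94.1 ± 128 CPM in members and 9.92 ± 7.85 in classical monocytes, lost it without 1 of the libraries (highest adjusted p = 0.0611).

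Dendritic cell core genes stood above classical monocytes. Of the 25 in the list, 18 were tested, 12 rose and 0 fell, with a median log2 fold of 1.12, against 0.02 over all genes tested and 3.49% of all genes rising. Beside Kmo, Slamf7 and Ciita, they included the peptidase gene Dpp4 (181 ± 68.3 CPM in members and 22.3 ± 7.41 in classical monocytes; 2.90 ± 0.286, adjusted p = 3.90e-08) and the transcription factor gene Bcl11a (148 ± 44.9 CPM in members and 46.8 ± 11.8 in classical monocytes; 1.64 ± 0.226, adjusted p = 1.30e-05). Cbfa2t3, a corepressor gene, was at 385 ± 106 CPM in members and 148 ± 27.0 in classical monocytes (1.33 ± 0.155, adjusted p = 7.82e-07). Itgax was at 81.3 ± 47.2 CPM in members and 14.7 ± 11.5 in classical monocytes (2.41 ± 0.420, adjusted p = 2.65e-04), higher in 5 of 6 libraries. In the cDC1 list, 12 of 22 were tested, 7 rose, 0 fell and 5 did not pass, with a median log2 fold of 1.00; those that rose were Irf8, Wdfy4, Rab7b, Cd24a, Btla, Septin3 and Cst3. Septin3 had no UMI in classical monocytes and was at 30.6 CPM in members, at least 25.3-fold higher against a floor of 3 UMIs over that class, and it was found in members of 3 libraries. In the cDC2 list, 15 of 21 were tested, 3 rose, 5 fell and 7 did not pass, with a median log2 fold of −0.20. Klf4, Cd7 and Mgl2 rose, Mgl2 with no UMI in classical monocytes and 34.3 CPM in members (at least 28.4-fold, from 3 libraries), whereas Itgam (607 ± 139.8 CPM in members and 994 ± 77.9 in classical monocytes; −0.75 ± 0.114, adjusted p = 4.34e-05), Clec4a2, Clec4a3, Zeb2 and Cd33, which monocytes also express, fell.

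The class II pathway was described through the genes that the rule left free. In that list, 11 of 17 were tested, 3 rose, 1 fell and 7 did not pass, with a median log2 fold of 0.27. H2-Aa, H2-Ab1, H2-Eb1 and Cd74, which the rule used, stand outside it. Ciita, the master activator of class II transcription, was at 154 ± 48.9 CPM in members and 18.9 ± 8.0 in classical monocytes (3.06 ± 0.302, adjusted p = 3.90e-08). Of the genes of the peptide-exchange factor H2-M, 2 rose: H2-DMb1 was at 277 ± 92.0 CPM in members and 53.4 ± 18.7 in classical monocytes (2.33 ± 0.210, adjusted p = 8.81e-09) and H2-DMa at 389.6 ± 73.7 CPM in members and 128 ± 38.9 in classical monocytes (1.58 ± 0.159, adjusted p = 5.30e-08), each higher in 6 of 6 libraries. H2-DMb2, its other beta chain gene, was at 54.7 ± 25.1 CPM in members and 24.3 ± 13.5 in classical monocytes and did not pass (1.05 ± 0.399, adjusted p = 0.117). Ctsd, a lysosomal protease gene, fell (75.5 ± 10.2 CPM in members and 142 ± 35.8 in classical monocytes; −0.91 ± 0.212, adjusted p = 0.00513). Ctss, the protease that trims the invariant chain, was at 2903 ± 439 CPM in members and 3227 ± 309 in classical monocytes and did not pass. Class II genes are known to share a promoter module bound by RFX, CREB and NF-Y, the last at a CCAAT box. The 250 bases before the start are shown for 2 class II chains of the rule and for H2-DMb1, which was tested, from RefSeq (GRCm38.p6), 5′ to 3′ on the gene's strand, with the letters GATTGG or the reverse, CCAATC, in capitals.
H2-Aa (chr17:34287824-34288073, minus strand): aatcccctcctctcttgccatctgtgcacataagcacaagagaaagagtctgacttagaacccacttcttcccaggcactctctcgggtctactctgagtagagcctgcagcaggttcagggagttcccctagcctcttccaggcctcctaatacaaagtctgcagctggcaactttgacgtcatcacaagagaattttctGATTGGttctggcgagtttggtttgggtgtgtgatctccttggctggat
H2-Eb1 (chr17:34305617-34305866, plus strand): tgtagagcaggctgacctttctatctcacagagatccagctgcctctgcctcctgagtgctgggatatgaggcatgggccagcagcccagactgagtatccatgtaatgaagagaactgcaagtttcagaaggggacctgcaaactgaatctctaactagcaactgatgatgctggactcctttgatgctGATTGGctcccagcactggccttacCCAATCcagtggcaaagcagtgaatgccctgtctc
H2-DMb1 (chr17:34152941-34153190, plus strand): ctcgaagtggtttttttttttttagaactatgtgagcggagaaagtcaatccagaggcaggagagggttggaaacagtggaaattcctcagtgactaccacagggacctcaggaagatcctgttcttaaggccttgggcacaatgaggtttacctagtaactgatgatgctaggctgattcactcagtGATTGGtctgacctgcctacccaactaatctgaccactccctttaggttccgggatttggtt
Searched on both strands, GATTGG occurred in the 250 bases before at least 1 start of all 7 genes that had an entry (H2-Aa, H2-Eb1, H2-DMa, H2-DMb1, H2-DMb2, H2-Oa and H2-Ob), and in 14.6% of all 32851 promoters of that length. H2-DMa has 2 starts, of which 1 holds it. The match nearest the start began 49, 35 and 62 bases before it in H2-Aa, H2-Eb1 and H2-DMb1. A match is a description of letters and not of a bound site.

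**Figure D4:**
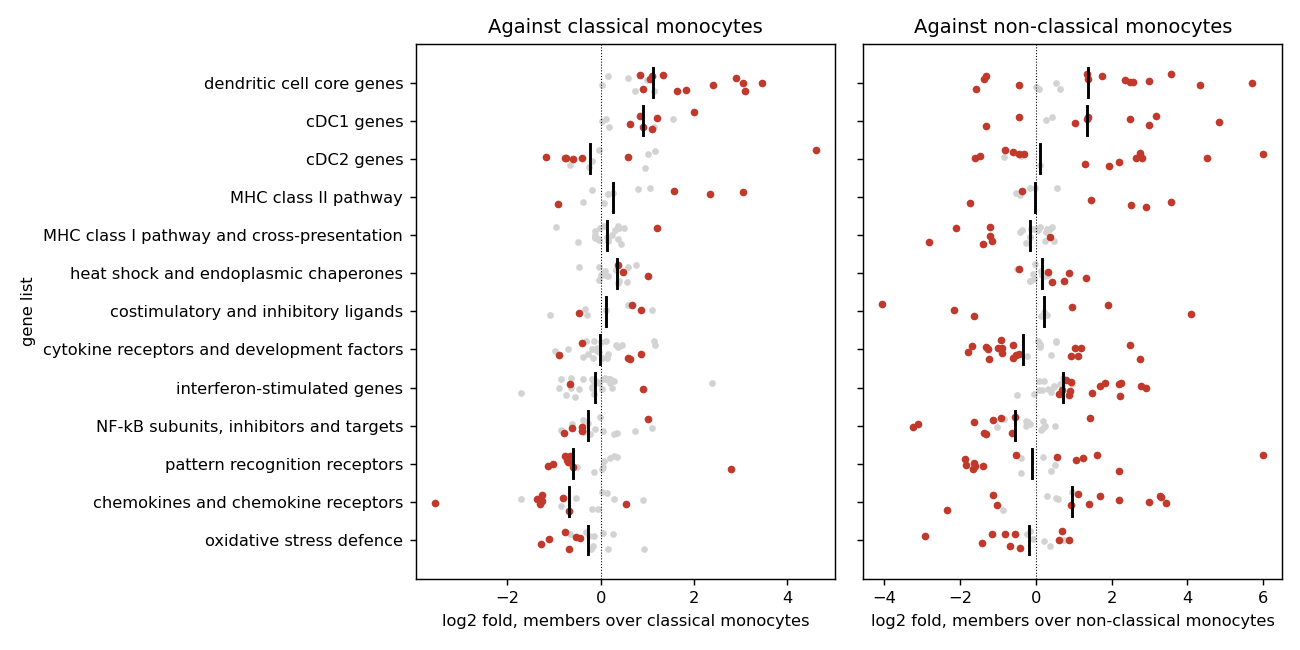
Each point is a tested gene of a list fixed for this work, placed by its log2 fold of members over classical (left) or non-classical monocytes (right); red points passed at an adjusted p under 0.05 and the black bar is the median of the genes drawn. Genes with no UMI in the monocyte class are not drawn. Against classical monocytes, core and cDC1 genes lie to the right and chemokine and pattern recognition genes mostly to the left.

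Other lists moved in part, where over all genes 3.49% were higher and 4.16% lower with a median log2 fold of 0.02. Among chaperones, 16 of 20 were tested, 3 rose, 0 fell and 13 did not pass, with a median log2 fold of 0.35; Hspa8, Hsp90aa1 and Hsp90ab1 rose, Hsp90aa1 most (344 ± 82.6 CPM in members and 165 ± 25.8 in classical monocytes; 1.00 ± 0.153, adjusted p = 4.53e-05). Of the costimulatory and inhibitory ligands, 9 of 17 were tested, 2 rose, 1 fell and 6 did not pass, with a median log2 fold of 0.11. Icosl, the ligand of ICOS (100.1 ± 50.5 CPM in members and 49.6 ± 9.92 in classical monocytes; 0.87 ± 0.269, adjusted p = 0.0435), and Cd48 rose and Vsir fell. Among chemokines and their receptors, 17 of 26 were tested, 1 rose, 7 fell and 9 did not pass, with a median log2 fold of −0.69. Those that fell included Cxcl2 (559 ± 235 CPM in members and 1406 ± 535 in classical monocytes; −1.37 ± 0.191, adjusted p = 9.44e-04), Ccl2, Ccl3, Ccl5, Ccl6 and Ccr1, and Itgb7, an integrin chain of gut homing, rose (561 ± 209 CPM in members and 359 ± 66.0 in classical monocytes; 0.55 ± 0.128, adjusted p = 0.00545). Of the pattern recognition receptors, 19 of 34 were tested, 1 rose, 7 fell and 11 did not pass, with a median log2 fold of −0.58; Cd14, the co-receptor for lipopolysaccharide, was at 201 ± 145 CPM in members and 418 ± 87.9 in classical monocytes (−1.14 ± 0.190, adjusted p = 3.55e-04). In oxidative stress defence, 16 of 20 were tested, 0 rose, 6 fell and 10 did not pass, with a median log2 fold of −0.28, with Prdx5 at 636 ± 194 CPM in members and 1326 ± 133 in classical monocytes (−1.10 ± 0.136, adjusted p = 1.17e-05). Of the NF-kB list, 19 of 22 were tested, 1 rose, 4 fell and 14 did not pass, with a median log2 fold of −0.26. Nfkb1 rose (1.01) and Nfkbia, Nfkbiz, Tnfaip3 and Plaur fell.

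The genes furthest below classical monocytes were partly those of other cell types. Gzma, a granzyme gene of NK cells, was at 13.4 ± 13.8 CPM in members and 415 ± 324 in classical monocytes (−5.12 ± 0.299, adjusted p = 6.98e-13), and Nkg7, Ccl5 and the neutrophil genes Mmp9 and Retnlg were also among the 15 lowest. The summed NK cell markers ranged over 191 to 1352 CPM in Con and 470.0 to 669 in T2D in classical monocytes and 8.02 to 45.9 CPM in Con and 13.0 to 45.0 in T2D in members, and neutrophil markers over 780.1 to 2979 CPM in Con and 2652 to 8995 in T2D in classical monocytes and 74.5 to 2468 CPM in Con and 146 to 201 in T2D in members. In members, Ncr1 of the NK markers was at 0, and the high neutrophil sum was that of Con 1, which holds the scored doublet. The part of such cells in these differences was not tested. The 10 other genes included Aoah, Sgms2 and Sqor. Of the 15, 12 kept their call without any 1 library, and Retnlg and Morrbid were among the 3 that lost it in some.

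Against non-classical monocytes (833 barcodes, chosen by Ace, Adgre4, Ear2, Treml4 and Csf1r), 33.1% of 4944 genes passed: 814 were higher in members (16.5%) and 820 lower (16.6%) by edgeR's quasi-likelihood test. Cd7 (6.01), Kmo (5.70), Ccnd1 (5.30), Slamf7 (4.32) and Ciita (3.57) were again among the 15 highest log2 folds, here with Fn1, Vcan, Mmp8 and Ly6c2, genes that also stood high in the Lyz2-high members. Lowest were Dnah12, Fabp4, a fatty acid-binding protein gene (2.42 ± 3.77 CPM in members and 200.3 ± 47.6 in non-classical monocytes), Hes1, a Notch target, and Tgm2; Pparg, Cd36 and Cd274 (PD-L1) were also among the 15. All 30 named genes kept their call without any 1 library. Of the core list, 18 of 25 were tested, 10 rose, 4 fell and 4 did not pass, with a median log2 fold of 1.37; Itgax was lower (81.3 ± 47.2 CPM in members and 262 ± 57.3 in non-classical monocytes; −1.57 ± 0.323, adjusted p = 0.00220). Id2, Traf1 and Cst3 of the core list were also lower. Of the cDC1 list, 12 of 22 were tested, 8 rose and 2, Id2 and Cst3, fell. Class I genes H2-K1 (1592 ± 225 CPM in members and 4053 ± 411 in non-classical monocytes) and B2m were lower, and 6 of 22 genes tested of the class I list fell. Of 28 interferon-stimulated genes tested, 14 rose and 0 fell, among them Ifit3, Isg15 and Bst2. Against classical monocytes, 32 of 40 were tested, 1 rose, 1 fell and 30 did not pass, with a median log2 fold of −0.12. The 38 genes of that list in the files summed to 9865 CPM in Lyz2-high and 7325 in Lyz2-low members.

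Plasmacytoid dendritic cells, which make type I interferon, were taken by at least 2 UMIs of Siglech and numbered 15 (1 to 5 per library), so pooled values are given with no test and with exact Poisson intervals for counting error. Irf8 was at 3805 CPM (3397 to 4248) in these 15 and at 673 in Lyz2-low members. Tcf4, their lineage factor, was at 2408 (2086 to 2766) and 234, and Cd7 at 2215 (1907 to 2559.7) and 661. Cst3, at 2589 (2254 to 2959) and 6092, and Ciita, at 72.2 (26.5 to 157) and 300.3, stood in the opposite order. Among members, Siglech (by the rule), Pacsin1 and Cox6a2 were at 0.

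Between all 19 cDC1-type and all 45 cDC2-type members, pooled because a library held as few as 2, the ratio of CPM was 5.42 for Irf8 (exact 95% interval 4.12 to 7.22, counting error only) and 4.72 for Id2 (3.35 to 6.76). Cd24a had 96 UMIs in cDC1-type and 7 in cDC2-type, and Kit, a cytokine receptor gene of precursors, 19 and 0. In the other direction, cDC2-type over cDC1-type gave 2.48 for Itgam (1.83 to 3.42) and 2.68 for Tmem176b (1.88 to 3.92). Of these members, 5 of the 19 and 22 of the 45 are Lyz2-high. In the Lyz2-low members alone (14 and 23), the ratios were 15.4 for Irf8 (8.75 to 29.4), 5.30 for Id2 (3.25 to 9.07) and, the other way, 6.53 for Itgam (3.46 to 13.6), so those of Irf8 and Itgam depend on the Lyz2-high members. No test was made with these numbers.

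The last comparison asked how T2D and Con members differed in gene levels. Con 3 had 9 members, fewer than the 10 set as the minimum for a test, so sums pooled within a group come first, with exact intervals that cover counting error only. A fit of edgeR's quasi-likelihood test on all 6 libraries was added after the member numbers were known. In that fit 1 of 2413 genes passed (0.0414%), and 103 had an unadjusted p under 0.05. These 103 are below the share of 0.05 that would fall there with no difference in any gene. On simulated counts, the same fit called 11.6% of tested changes of log2 size 1 and 80.6% of those of size 2. Most changes of size 1 would thus be missed, and a gene without a call is not shown to be unchanged.

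The gene that passed was Tnfaip3, which encodes A20, an inhibitor of NF-kB signalling. It stood at 1211, 1419 and 879.7 CPM in Con 1, 2 and 3 and 461, 284 and 337 CPM in T2D 1, 2 and 3. Every T2D library was below every Con library. Pooled, it had 368 UMIs in Con and 155 in T2D, a ratio of 0.274 (exact 95% interval 0.226 to 0.332). The fitted log2 fold was −1.76 ± 0.233 (SE; edgeR adjusted p = 0.00275; lower in 3 of 3 T2D libraries). The call was lost without Con 2 (adjusted p = 0.103), without T2D 2 (0.0661) or without T2D 3 (0.0507), with log2 folds of −1.59 to −1.72 in these 3 fits, and it held without each of the others. It was also lost in the Lyz2-low members alone (log2 fold −2.03, edgeR adjusted p = 0.142). Another fit applied the rule to barcodes of at least 1500 UMIs after thinning them to 1500, and summed their full counts. There Tnfaip3 did not pass either (log2 fold −2.47, edgeR adjusted p = 0.245). That set held 12, 6 and 5 barcodes in Con 1, 2 and 3 and 5, 16 and 9 in T2D 1, 2 and 3. Of these, 33 were among the 105 members, and the rest did not meet the rule at full depth. In the Lyz2-low members, Tnfaip3 was at 834, 1044 and 753 CPM in Con 1, 2 and 3 and 462, 131 and 102 CPM in T2D 1, 2 and 3, again without overlap. Its level differed between member types. Pooled over the Lyz2-low members of all libraries, it was at 655 CPM in cDC2-type (79 UMIs, 12 of 23 barcodes). In cDC1-type it was at 56.1 CPM (6 UMIs, 3 of 14 barcodes). The part of member types in the difference between the groups was not tested. Classical monocytes of the same libraries held 1232, 1392 and 1448 CPM in Con 1, 2 and 3 and 693, 459 and 453 CPM in T2D 1, 2 and 3, and the T2D effect in members minus that in classical monocytes was −0.39 ± 0.244 on the log2 scale (edgeR interaction test, adjusted p = 1.00). Over all 5363 genes, 0 passed this test of the difference, and 4 passed without Con 3. Those at an unadjusted p under 0.05 numbered 203, again below a share of 0.05. No change was thus shown to be particular to members.

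Other genes of the NF-kB list are given as values, since none passed. Of the 22 genes of the list, 14 were tested, and 1 of these is Tnfaip3 itself. Counting Tnfaip3, 11 had a negative log2 fold and 5 were lower without overlap between groups. The median log2 fold, again with Tnfaip3, was −0.71, against −0.00248 over all genes tested, of which 4.43% were lower without overlap. Nfkbia, the inhibitor IkB-alpha gene, stood at 3413, 3014 and 2177 CPM in Con 1, 2 and 3 and 2746, 1103 and 997 CPM in T2D 1, 2 and 3, with T2D 1 within the range of Con. Nfkbiz was at 1055, 1363 and 477 CPM in Con 1, 2 and 3 and 664, 339 and 363 CPM in T2D 1, 2 and 3 and Rel, a subunit gene, at 248, 329 and 298 CPM in Con 1, 2 and 3 and 158, 174 and 188 CPM in T2D 1, 2 and 3. Of these, Rel did not overlap between the groups (log2 fold −0.75 ± 0.260; edgeR adjusted p = 0.926). In the AP-1 and immediate early list, 25 of 33 genes were tested, 0 passed, 16 had a positive log2 fold and 5 were higher without overlap (5.3% of all genes were), with a median of 0.20. Its member Fos was at 2193, 1643 and 2043 CPM in Con 1, 2 and 3 and 2251, 3983 and 3970.3 CPM in T2D 1, 2 and 3, a pooled ratio of 1.89 (exact 95% interval 1.72 to 2.08). Atf3, a stress-induced factor, was at 505, 433 and 373 CPM in Con 1, 2 and 3 and 731, 939 and 868 CPM in T2D 1, 2 and 3, a ratio of 1.96 (exact 95% interval 1.61 to 2.41). In the Lyz2-low members Fos was at 972, 1115 and 2116 CPM in Con 1, 2 and 3 and 1692, 2334 and 2154 CPM in T2D 1, 2 and 3, where the groups overlapped. Over all members, both genes had every T2D library above every Con library, by a narrow margin between T2D 1 and Con 1 for Fos, and the edgeR adjusted p of Fos and Atf3 were 0.644 and 0.189.

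The other genes with the smallest unadjusted p did not pass either. Below Con were Tgif1, a transcriptional corepressor gene (193, 393 and 313 CPM in Con 1, 2 and 3 and 124, 68.7 and 97.2 CPM in T2D 1, 2 and 3; log2 fold −1.72 ± 0.343), Erlin1 (−1.76 ± 0.383), the stress gene Gadd45b (−1.91 ± 0.527), Txnip, a thioredoxin-binding protein gene (−1.04 ± 0.289), Tifa (−1.20 ± 0.358), Smim3, Prkab2, Tob2 and Lpin2, with edgeR adjusted p from 0.155 to 0.924. In 8 of these 9, Smim3 excepted, the groups did not overlap. Above Con, beside Atf3 and Fos, were Zfand5 (0.91 ± 0.220), Hbb-bs, Itgax, Tes, Vcan, H1f2, H3f3b and U2surp, without overlap in each and with adjusted p from 0.383 to 0.924. Genes without overlap made up 9.74% of all genes tested. The genes named here were picked by their p in these same libraries, so absence of overlap is largely set by the choice and adds no support. Itgax, the CD11c gene, was at 27.5, 40.1 and 59.6 CPM in Con 1, 2 and 3 and 113, 151 and 97.2 CPM in T2D 1, 2 and 3, from 3 to 33 UMIs per library, and in Lyz2-low members at 83.4, 88.5 and 71.7 CPM in Con 1, 2 and 3 and 192, 332 and 254 CPM in T2D 1, 2 and 3. The groups did not overlap in either. Since Lyz2-high members held 0 Itgax UMIs, both sets of values rest on the same UMIs over different totals. The Lyz2-low values thus add no support. Hbb-bs is a haemoglobin gene, and the summed red cell markers moved with the groups: 119 to 194 CPM in Con and 233 to 522 in T2D, with all 4 genes detected. The same sum was 165 to 199 CPM in Con and 273 to 3567 in T2D in classical monocytes. In non-classical monocytes it was 137 to 161 CPM in Con and 251 to 4414 in T2D. In Lyz2-low members the groups overlapped (83.4 to 197 CPM in Con and 119 to 604 in T2D).

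**Figure D5:**
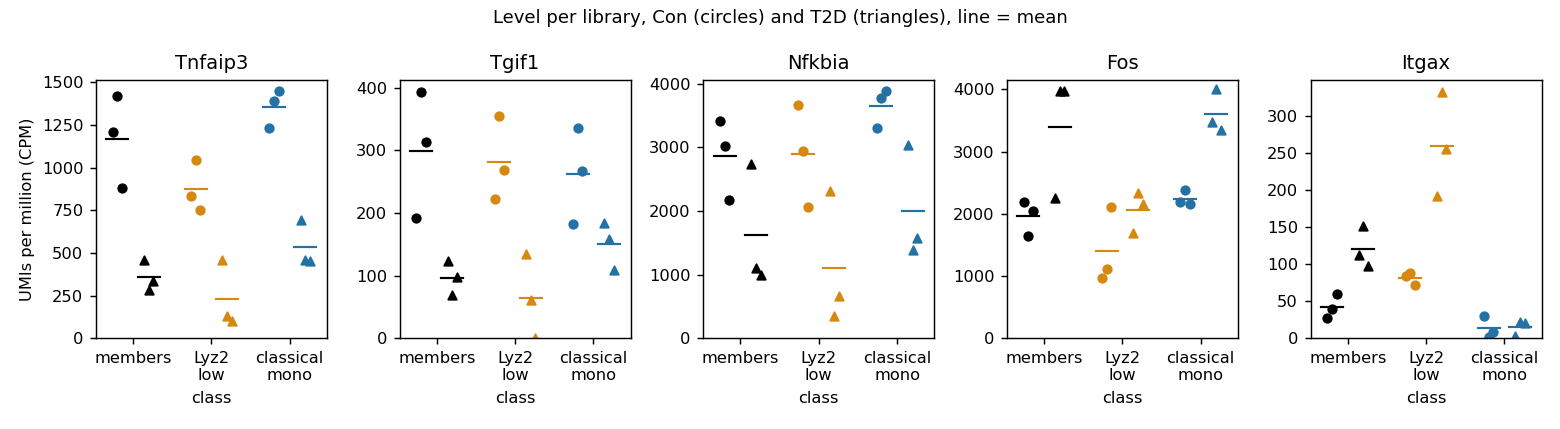
Level in CPM of 5 genes per library, circles for Con and triangles for T2D, in all members (black), Lyz2-low members (orange) and classical monocytes (blue), with a line at the group mean. Tnfaip3 is lower in each T2D library than in each Con library in all 3 classes; Nfkbia overlaps in members.

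The dendritic lists showed no call between the groups. Of the core list 14 genes were tested (5 positive, 9 negative), of the cDC1 list 8 (1 positive, 7 negative, median −0.25), of the cDC2 list 12 (7 and 5) and of the class II pathway 8 (4 and 4). Among interferon-stimulated genes, 18 of 40 were tested and 15 had a positive log2 fold (median 0.14), 0 of them without overlap. Of 25 lipid handling genes, 8 were tested and 7 were positive (median 0.33).

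The makeup of the members stood beside this comparison. The summed classical monocyte markers (5 genes, all detected) ranged over 10526 to 25588 CPM in Con and 21686 to 24962 in T2D in members, the lowest being Con 3, and over 4668 to 5901 CPM in Con and 4024 to 5749.6 in T2D in Lyz2-low members. Non-classical monocyte markers (6 genes, all detected) summed to 1491 to 3151 CPM in Con and 1644 to 2403 in T2D, platelet markers (4, all detected) to 401 to 1744 CPM in Con and 162 to 945 in T2D and B cell markers (9, all detected) to 938 to 1372 CPM in Con and 997 to 1148 in T2D. Of 7 T cell markers 4 were detected, at 64.1 to 134 CPM in Con and 78.8 to 169 in T2D in sum, with Cd3d, Cd3e and Cd3g at 0 by the rule. Eosinophil markers summed to 0 to 9.17 CPM in Con and 0 to 22.5 in T2D with Alox15 at 0, and basophil markers to 0 to 9.17 CPM in Con and 0 in T2D, with Mcpt8 and Fcer1a at 0. The part of these cell types in the differences above was not tested.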

How the data were processed

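Single-cell libraries of mouse blood mononuclear cells were made on the BD Rhapsody whole transcriptome platform, per the labels' protocols, and the authors deposited raw UMI counts per gene and barcode for 6 libraries (31253 genes). Per the submitters' processing notes, the build was mm10 and the tools included UMI-tools, CASAVA 1.8 and Seurat, in roles that they do not give. The aligner and annotation are not stated there. From these counts, barcodes with 200 or more genes and no more than 20% of UMIs from mitochondrial genes were kept, and members, monocytes, B cells and plasmacytoid cells were taken by the UMIs of named genes, without clustering. Doublets were scored by simulated pairs (scikit-image threshold) and kept in the main counts. Counts were summed per library and class and fitted with edgeR 4.0.16 (R 4.3.3; TMM, filterByExpr, robust quasi-likelihood, Benjamini-Hochberg adjustment over all genes tested, threshold 0.05), with the library as block for class comparisons; the fits were tested on simulated data. On simulated data, 11.6% of tested changes of log2 size 1 and 80.6% of size 2 were called between T2D and Con. Against classical monocytes, 40% and 96.9% were called. DESeq2 1.42.0 was an alternative. Levels are counts per 1000000 summed UMIs (CPM). Shares were compared by exact permutation over libraries (SciPy 1.17.1), with exact binomial (Clopper-Pearson) intervals at 95% confidence, which cover counting error only. Against the plan, the fit between T2D and Con was added although Con 3 had fewer than 10 members. Named genes were, between groups, every call and the 10 smallest unadjusted p in each direction, and, between classes, the 15 highest and 15 lowest log2 folds among calls with a mean of at least 50 CPM over both classes, beside examples from 32 gene lists. The members, the lists and the marker genes were chosen with earlier results of these data known. Genes with near-identical copies, such as H2-Q and Gbp family members, cannot be told apart with certainty in such counts.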

Additional observations from a re-analysis of the deposited data

How the results depend on the processing

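Between T2D and Con, the 1 gene called by edgeR became 3 in the set that met the rule after thinning to 1500 UMIs. That set, summed at full depth, included barcodes outside the 105 members. The Lyz2-low members gave 0 calls (57 of 1122 genes at an unadjusted p under 0.05). Without the filter on low counts, 15 of 11734 genes passed (10 higher, 5 lower), and with 1 library left out 0 to 5 passed. Tnfaip3 kept its direction in all 14 edgeR alternatives, with 5 in which it no longer passed. Deviations from the group means correlated at −0.0134, −0.0258 and −0.104 between Con and T2D libraries of the same replicate number. No other pairs of libraries were set beside these, so whether the numbers pair the libraries is not settled. With the replicate block 1 gene passed. DESeq2 called 1 gene of 11733, lower in T2D and not identified here. The difference in share was −0.0102 percentage points among barcodes with at most 1 B cell UMI and −0.00731 to 0.0907 with 1 library left out. Of the members, 33 also met the rule after thinning, and their types were kept from full depth. Among these 33, 4 to 7 per library, the difference of the cDC1-type share was 7.54 points, against −7.74 in all members. That of the cDC2-type share was −7.22, against 0.82. With 1 library left out, the cDC2-type difference ran from −2.78 to 7.20, cDC1-type from −10.4 to −2.51, both pairs from −12.5 to −2.84 and neither pair from 8.13 to 19.9. The calls against classical monocytes numbered 273 (without T2D 2) to 394 with 1 library left out, and those of the interaction 0 to 4 (4 without Con 3). Against classical monocytes without a filter, 574 genes passed, 186 higher and 388 lower, where the median over all genes was −0.16, and against non-classical monocytes 1293 to 1537 passed with 1 library left out. The cause of these changes was not tested. Leave-one-out and filter alternatives were not run for the pooled cDC1-type, cDC2-type and plasmacytoid values, and members with under 5 monocyte UMIs could not be fitted, since Con 2 held 0 of them. The sets described without a test hold 5 to 47 barcodes.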
